A study of Homo sapiens with 36 samples.

Results

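Genes of the neurotrophins, of their receptors and of the receptors for glial cell line-derived neurotrophic factor (GDNF) were followed through neuronal induction. The 8 genes, chosen by symbol from the deposited gene tables, were the ligands BDNF and NTF3, the neurotrophin receptors NTRK2, NTRK3, NGFR and SORT1, and the GDNF receptor genes RET and GFRA1, out of 62710 genes in the tables. BDNF has been reported as a target of RAI1. All 8 symbols were found. They were measured in H9 cells, an established human embryonic stem cell line, induced by doxycycline-driven NGN2 to become neurons called iNeurons. The groups were wild type (WT), RAI1+/- (HET) and RAI1-/- (KO) cells at days 0, 3 and 7 of induction, with 4 libraries labelled as biological replicates in each of the 9 groups. RAI1 encodes a chromatin protein. All groups shared the H9 background and the NGN2 system. The treatment protocol given for every library names a Neurobasal-A medium with GlutaMAX, B27, CultureOne and 2 ligands of these very receptors: NT3, the product of NTF3, and GDNF; whether day 0 cells had been in it is not given. How many clones carried each genotype was not given, and p-values measure the spread between these cultures.

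Neurotrophins are made as longer precursors that are cut by proprotein convertases and released by neurons and their targets. Mature BDNF binds the tyrosine kinase TrkB, encoded by NTRK2, and NT3 binds TrkC, encoded by NTRK3; both receptors feed the MAP kinase, PI3 kinase and phospholipase C pathways that serve survival, branching and synaptic change. The p75 receptor, encoded by NGFR, binds every neurotrophin and also the precursors, for which sortilin, the product of SORT1, is its partner and an intracellular sorting receptor. GDNF acts through a pair: GFRA1 is a lipid-anchored protein that holds the ligand, and RET is the tyrosine kinase it brings to it. Outside the brain, Trk receptors, p75 and RET are known for marking classes of sensory and autonomic neurons.

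The first RefSeq promoter of 4 members is shown because these genes passed the test in KO against WT at day 3 and because NGN2 is a bHLH protein, a class that binds E-boxes. Each run is the 250 bases before a transcription start in GRCh38.p14, read 5′ to 3′ on the gene's strand, with every E-box (CANNTG) in capitals. GFRA1 lies at chr10:116274706-116274955 on the minus strand, RET at chr10:43076819-43077068 on the plus strand, NTRK3 at chr15:88256740-88256989 on the minus strand and NTF3 at chr12:5431858-5432107 on the plus strand.
GFRA1: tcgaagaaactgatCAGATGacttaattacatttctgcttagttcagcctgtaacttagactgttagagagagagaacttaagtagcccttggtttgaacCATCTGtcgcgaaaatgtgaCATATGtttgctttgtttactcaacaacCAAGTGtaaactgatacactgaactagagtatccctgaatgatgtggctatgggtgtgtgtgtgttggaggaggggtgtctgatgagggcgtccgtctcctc
RET: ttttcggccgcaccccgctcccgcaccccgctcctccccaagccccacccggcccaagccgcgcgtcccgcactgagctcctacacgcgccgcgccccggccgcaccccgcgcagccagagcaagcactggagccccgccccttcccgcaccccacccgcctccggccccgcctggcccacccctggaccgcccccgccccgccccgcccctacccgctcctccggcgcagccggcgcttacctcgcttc
NTRK3: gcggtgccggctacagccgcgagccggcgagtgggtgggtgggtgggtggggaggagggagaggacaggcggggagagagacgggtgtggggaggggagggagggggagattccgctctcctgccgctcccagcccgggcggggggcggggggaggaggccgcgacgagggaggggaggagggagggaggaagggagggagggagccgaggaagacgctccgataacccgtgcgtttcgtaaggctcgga
NTF3: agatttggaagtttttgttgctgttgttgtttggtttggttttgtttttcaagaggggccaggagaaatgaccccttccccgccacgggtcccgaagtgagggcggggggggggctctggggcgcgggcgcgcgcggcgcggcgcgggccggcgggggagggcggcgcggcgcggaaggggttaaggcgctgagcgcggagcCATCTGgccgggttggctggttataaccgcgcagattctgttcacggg
The GFRA1 window holds 4 E-boxes, 2 of them of the CAGATG type or its reverse complement CATCTG. The NTF3 window holds 1 E-box, which is CATCTG, and the RET and NTRK3 windows hold 0. Windows not printed differ from these: RET window 2 holds 2 E-boxes and NTF3 window 2 holds 0. GFRA1 windows 2, 3 and 4 hold 1 each, of the CAGATG type in window 4 only. Among 35116 windows of this length in the RefSeq table, 61.8% held CANNTG and 12.2% held CAGATG on either strand. Over the 20 windows listed for 7 of the members, 12 held CANNTG and 5 held CAGATG. The cyclic AMP response element TGACGTCA, searched because BDNF is a textbook CREB target, was in 1.65% of all windows and in 0 of the 20. Only this exact run was searched, so a variant of the element would be missed and its absence from the BDNF windows is not shown. A match is a run of letters and no evidence of binding.

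Library totals ran from 23.95 to 56.68 M counts. A group of 5 structural RNAs (RMRP, RPPH1, RN7SK, RN7SL1 and RN7SL2) took 2.84% to 27.47% of a library's counts, and at day 7 they ranged from 14.49% to 25.58% in WT, from 2.84% to 27.47% in HET and from 9.90% to 15.84% in KO. RAI1 itself was not lower in libraries labelled HET or KO on any day (86.7 ± 16.2 CPM in KO and 52.1 ± 14.8 in WT at day 7; SD, n = 4; edgeR adjusted p = 0.0296), so gene-level counts did not check the genotype labels, and all directions follow those labels. All libraries carried the cell type label iNeuron, yet the summed level of 8 stem cell markers was 2041 to 4577 CPM at day 0 and 52.0 to 319 at day 7, with POU5F1 down from 349 ± 61.2 to 0.113 ± 0.0474 CPM in WT. Summed pan-neuronal markers (10 genes) were at 245 to 672 CPM at day 0 and 5882 to 14819 at day 7. Summed excitatory forebrain markers (6 genes) were at 10.6 to 12.2 CPM in WT at day 0 and 219 to 336 at day 7. Of these, NEUROD6 was at or under 3 counts in every library of all 9 groups.

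Levels are given as CPM, counts scaled by the TMM library size, and as mean ± SD of 4 libraries unless stated. Comparisons of genes with each other use the deposited TPM, which is scaled for length, as shares within a library. At day 0 in WT, SORT1 made up 52.6% ± 0.828 of the summed TPM of the 8 genes and NGFR 29.4% ± 1.72. At day 3 NGFR led with 52.3% ± 3.98, followed by NTF3 with 17.7% ± 2.05. At day 7 GFRA1 had the largest mean share in WT with 41.1% ± 8.33, whereas NGFR had it in KO (51.4% ± 9.40) and in HET (43.1% ± 16.7). Single libraries differed from these means. In HET replicate 4 GFRA1 (29.8 TPM) stood above NGFR (16.0), and in WT replicate 1 NTRK3 (9.22 TPM) stood above GFRA1 (8.34). BDNF stayed a minor transcript throughout, at most 2.01% ± 0.494 (KO at day 0) and 0.345% ± 0.220 in WT at day 7.

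**Figure D1:**
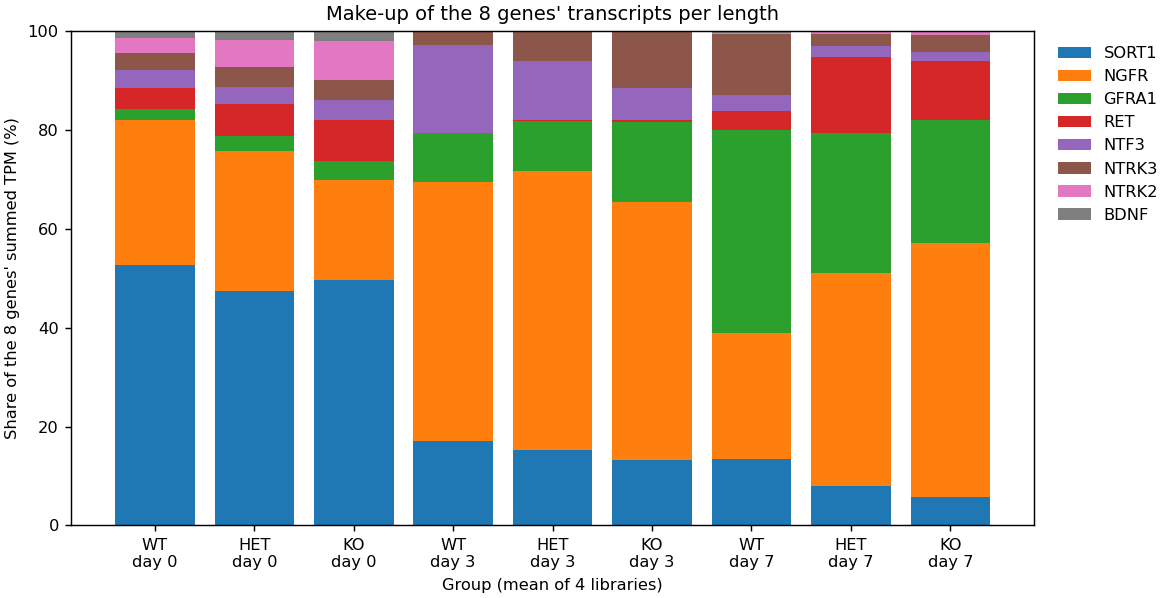
Mean share of each gene in the summed TPM of the 8 genes (vertical axis, percent) in the 9 genotype and day groups (horizontal axis, 4 libraries each). SORT1 and NGFR make up most of the total at day 0, NGFR at day 3, and GFRA1 (WT) or NGFR (HET and KO) has the largest mean share at day 7, though not in every library.

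The WT time course was tested first, with edgeR's quasi-likelihood test on the 12 WT libraries and Benjamini-Hochberg adjustment over all genes; a gene is called changed at an adjusted p below 0.05. From day 0 to day 3, 4 of the 8 genes rose and 3 fell, against 60% of all tested genes called (31.2% higher and 28.7% lower). From day 3 to day 7, 4 rose and 3 fell, against 46.2% of all genes (23.3% higher and 22.9% lower). Those shares are themselves large, and with only 8 members no result is read from counts that stand above them. In bulk RNA a rise in the share of cells that express a gene and a rise in RNA per cell cannot be told apart, here and in every result that follows.

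The ligands moved in different ways. NTF3 (chromosome 12, 5432112 to 5521536, plus strand, in GRCh38 per GENCODE 29) was a transient transcript in WT, with 1.02 ± 0.188 CPM at day 0, 25.4 ± 4.83 at day 3 and 3.76 ± 0.652 at day 7. It rose by 4.61 log2 (SE 0.22, edgeR adjusted p = 1.25e-09) and then fell by 2.75 log2 (SE 0.20, adjusted p = 1.03e-07). BDNF (chromosome 11, 27654893 to 27722058, minus strand) was low at all times, with 1.80 ± 0.255, 0.824 ± 0.232 and 1.58 ± 0.958 CPM, from 25 to 93 counts per library. It fell by 1.14 log2 to day 3 (SE 0.38, edgeR adjusted p = 0.0173). Its difference from day 3 to day 7 was 0.92 log2 (SE 0.38, adjusted p = 0.0592). That adjusted p became 0.0391 with DESeq2, 0.0456 without WT day 3 replicate 2 and 0.00899 without WT day 7 replicate 4. BDNF shares its locus with the antisense gene BDNF-AS. In WT at day 0 they were at 1.80 and 2.19 CPM, and scaled for length at 0.355 ± 0.0208 and 1.66 ± 0.296 TPM. Since no source says whether counting used strand, reads from the pair cannot be told apart.

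Among the Trk receptors, NTRK2 (chromosome 9, 84668551 to 85027070, plus strand) nearly vanished and returned. WT libraries held 6.42 ± 3.88 CPM at day 0, 1 to 9 counts per library at day 3 (0.0185, 0.0224, 0.048 and 0.236 CPM) and 1.86 ± 1.41 CPM at day 7. The fitted differences were -6.38 log2 (SE 0.86, edgeR adjusted p = 1.93e-05) and 4.59 log2 (SE 0.85, adjusted p = 0.000492). Without WT day 3 replicate 4, the library with 9 counts, they were -7.67 and 5.88 log2. The gene-level counts hold full-length and truncated TrkB together. NTRK3 (chromosome 15, 87859751 to 88256768, minus strand) went the other way and rose in both intervals, from 4.6 ± 1.2 to 16.6 ± 4.15 and 68.1 ± 67.8 CPM (1.84 log2, SE 0.48, adjusted p = 0.00444, then 2.02 log2, SE 0.48, adjusted p = 0.00287). One library weighed on the day 7 mean: the WT values were 169, 39.3, 40.6 and 23.4 CPM in replicates 1 to 4, and without replicate 1 the second rise was 1.07 log2 (adjusted p = 0.00246).

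The p75 receptor gene NGFR (chromosome 17, 49495293 to 49515017, plus strand) peaked in WT at day 3, with 31.0 ± 1.90, 246 ± 60.1 and 100 ± 39.0 CPM. It rose by 2.98 log2 (SE 0.26, edgeR adjusted p = 2.79e-07) and fell by 1.29 log2 (SE 0.24, adjusted p = 0.000567). SORT1 (chromosome 1, 109309568 to 109397951, minus strand) was the steadiest member, at 111 ± 7.26, 142 ± 33.1 and 92.3 ± 16.3 CPM. Only its fall of 0.62 log2 after day 3 was called in WT (SE 0.17, adjusted p = 0.00832).

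The GDNF receptor pair did not move as a pair in WT. GFRA1 (chromosome 10, 116056925 to 116273467, minus strand) climbed from 5.86 ± 3.15 to 83.0 ± 9.64 and 352 ± 85.2 CPM, a rise of 3.81 log2 (SE 0.35, edgeR adjusted p = 4.46e-07) followed by one of 2.09 log2 (SE 0.32, adjusted p = 8.99e-05). RET (chromosome 10, 43077027 to 43130351, plus strand) first fell from 5.34 ± 0.97 to 0.83 ± 0.287 CPM (-2.71 log2, SE 0.58, adjusted p = 0.00105) and then rose to 19.3 ± 14.5 CPM (4.57 log2, SE 0.61, adjusted p = 2.92e-05). The co-receptor was thus already high at day 3, when the kinase gene had only 29 to 46 counts per WT library.

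**Figure D2:**
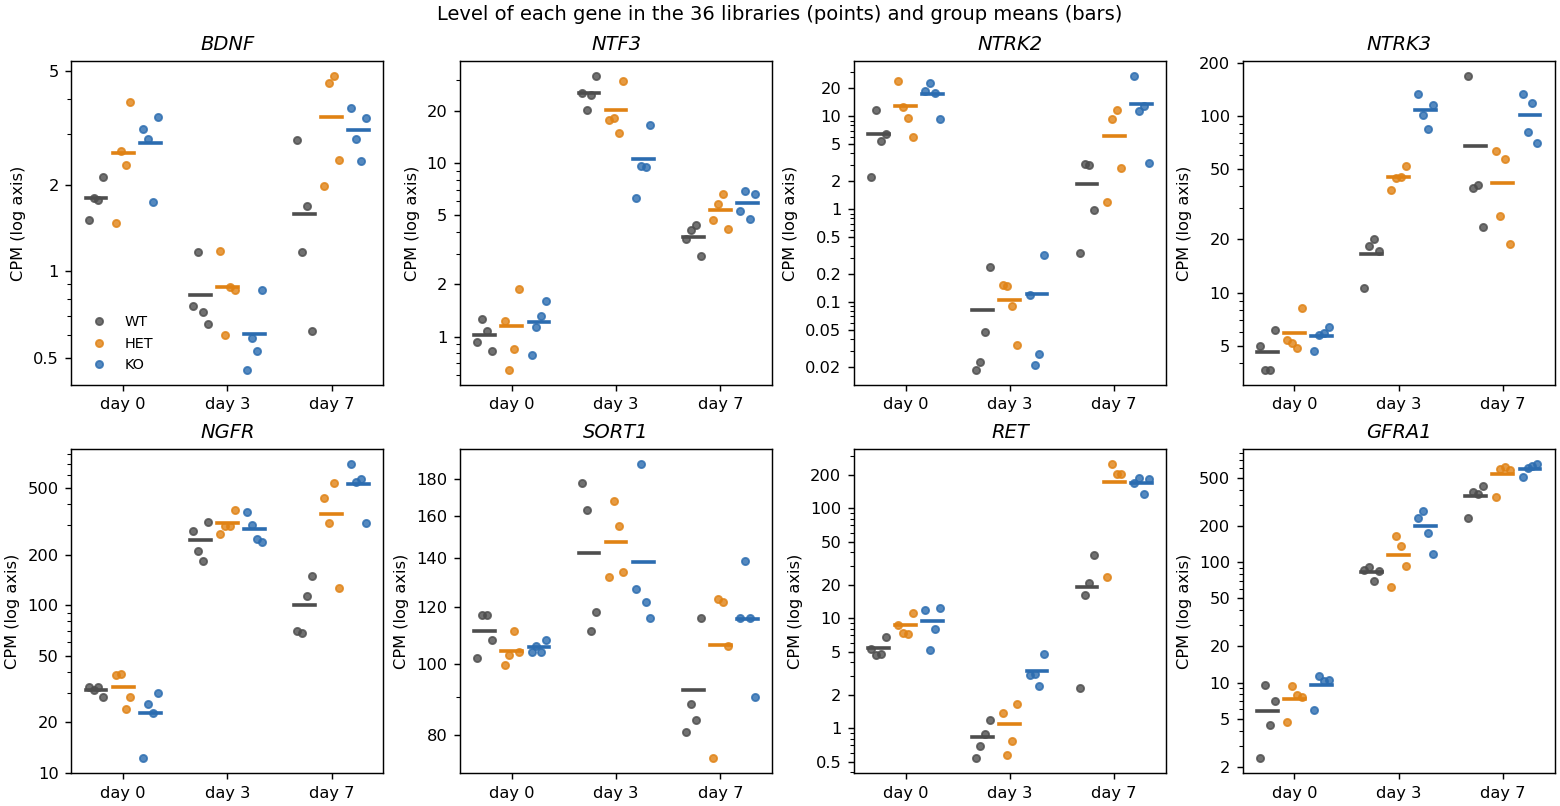
CPM of each gene (vertical log axis) by day (horizontal axis) for WT (grey), HET (orange) and KO (blue); each point is 1 of 36 libraries and each bar the mean of 4. NTF3 peaks at day 3, NTRK2 and RET are lowest at day 3, GFRA1 climbs at each step, and RET at day 7 lies between 136 and 191 CPM in the KO libraries and between 2.34 and 37.4 CPM in WT.

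Before induction, 0 of the 8 genes passed the test in KO against WT, where 2.08% of all genes did, and 0 passed in HET against WT, where 1.63% did (DESeq2 called 1 in KO and 0 in HET). At an unadjusted p below 0.05 lay 3 members in KO (BDNF, NTRK2 and RET) and 1 in HET (RET). The share of all genes below that unadjusted line was not counted, here or later, so no result is read from such counts. RET read 5.23, 4.63, 4.76 and 6.74 CPM in WT, 8.75, 7.31, 7.21 and 11.3 in HET, and 12, 5.14, 7.99 and 12.5 in KO. All 4 HET libraries lay above all WT libraries, and 3 of 4 KO libraries did. The difference was 0.83 log2 in KO (SE 0.25, edgeR adjusted p = 0.138) and 0.71 in HET (SE 0.25, adjusted p = 0.266). In KO against WT, where same-numbered libraries deviated together, a fit with the replicate number as a block called RET (0.79 log2, adjusted p = 0.0197) and GFRA1 (0.83 log2, adjusted p = 0.0338), so that 2 members passed. That fit called 960 of 20437 genes, beside 425 without the block. DESeq2 called RET in KO (adjusted p = 0.0313), and so did edgeR without KO day 0 replicate 2 (1.03 log2, adjusted p = 0.0224). NTRK2 was 1.45 log2 higher in KO (SE 0.49, adjusted p = 0.192), at 9.30 to 23.1 CPM against 2.25 to 11.6 in WT. BDNF differed by 0.66 log2 in KO (SE 0.28, adjusted p = 0.345) and 0.54 in HET (SE 0.28, adjusted p = 0.494). No member passed in KO against HET, where 0.856% of genes did, by edgeR or DESeq2; only NGFR had an unadjusted p below 0.05 there (0.0457, at -0.51 log2).

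At day 3 the receptors NTRK3, RET and GFRA1 were higher and the ligand NTF3 was lower in KO than in WT. These were 4 of the 7 members that passed the filter on low counts, against 21.6% of all genes (12.6% higher and 8.93% lower); NTRK2 had too few counts to be tested. The members' median difference was 0.22 log2, beside -0.05 for all tested genes. In HET, 1 of 7 was called, NTRK3 (higher), against 3.28% of all genes (2.52% higher). These fits had no replicate block, although same-numbered libraries deviated together in both comparisons. With the block, 8138 of 21563 genes were called in KO against WT (4649 without it) and 1895 in HET against WT (708 without it). Both comparisons use the same WT libraries, so their values are set side by side and no agreement is read from them.

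NTRK3 was ordered WT, HET, KO at day 3. Its levels were 10.6, 18.4, 20 and 17.3 CPM in WT, 38.0, 44.3, 45.4 and 51.9 in HET, and 134, 102, 84.3 and 115 in KO. The 3 groups did not overlap. The gene was 2.72 log2 higher in KO than in WT (SE 0.22, edgeR adjusted p = 4.08e-06), 1.44 higher in HET than in WT (SE 0.21, adjusted p = 0.00144) and 1.28 higher in KO than in HET (SE 0.21, adjusted p = 0.00418). The 2 last calls were lost on deposited TPM (limma adjusted p = 0.586 and 0.594). KO against HET called 2 of 7 members, where 4.35% of all genes passed (2.77% in the higher direction of these members).

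RET was the other member called in KO against HET. It read 0.536, 0.695, 0.887 and 1.2 CPM in WT, 1.38, 0.576, 0.774 and 1.68 in HET, and 3.07, 3.10, 2.42 and 4.71 in KO. Every KO library lay above every library of the other groups, while HET and WT overlapped. The rise was 2.01 log2 against WT (SE 0.38, edgeR adjusted p = 0.00239) and 1.60 log2 against HET (SE 0.38, adjusted p = 0.031). The call against HET was lost when any 1 of 5 libraries was left out (HET replicates 1, 2 and 3 and KO replicates 1 and 2, adjusted p from 0.056 to 0.0768). It was also lost on deposited TPM with the structural RNAs in (adjusted p = 0.328) and left out (adjusted p = 0.0636). HET and WT differed by 0.40 log2 (SE 0.38, adjusted p = 0.721).

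GFRA1 read 86.2, 91.6, 69.2 and 85.0 CPM in WT at day 3 and 231, 268, 176 and 118 in KO, without overlap. The rise was 1.26 log2 (SE 0.30, edgeR adjusted p = 0.00842). HET libraries spread from 61.9 to 166 CPM and straddled the WT values (0.46 log2, SE 0.29, adjusted p = 0.545). NTF3 moved against the receptors. It was counted at 25.3, 20.1, 24.5 and 31.8 CPM in WT, 17.7, 18.2, 14.9 and 29.6 in HET, and 6.28, 9.62, 9.46 and 16.6 in KO. Every KO library lay below every WT library, a fall of 1.27 log2 (SE 0.29, adjusted p = 0.00696). On deposited TPM with limma, GFRA1 (1.31 log2, adjusted p = 0.229) and NTF3 (-0.69 log2, adjusted p = 0.35) were not called. KO and HET overlapped for NTF3 (-0.93 log2, SE 0.29, adjusted p = 0.0914). That difference passed with DESeq2 (adjusted p = 0.0349), with library-size scaling (0.0481), with the structural RNA share as a covariate (0.0246) and without KO day 3 replicate 4 (0.0221).

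BDNF, NGFR and SORT1 gave no call at day 3. BDNF was at 19 to 35 counts per KO library and 25 to 52 per WT library (-0.44 log2, SE 0.33, adjusted p = 0.357). NGFR lay at 286 ± 55.5 CPM in KO and 246 ± 60.1 in WT, and SORT1 at 138 ± 33.8 and 142 ± 33.1. Their differences were 0.22 log2 (SE 0.20) and -0.04 log2 (SE 0.20).

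Several marker lists moved with the KO libraries at day 3. Pan-neuronal markers summed to 4917 to 8006 CPM in KO, 2151 to 4651 in HET and 1478 to 1825 in WT, with 9 of 10 called higher in KO. Sensory and autonomic markers summed to 119 to 307 CPM in KO and 18.8 to 30.2 in WT, with 4 of 7 tested genes higher, among them POU4F1 at 70.3 ± 38.0 against 3.11 ± 3.17 CPM. Markers of dividing cells summed to 413 to 1133 CPM in KO and 1136 to 2243 in WT, with 3 of 6 lower. Their part in the receptors' rise was not tested.

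At day 7 the receptors NGFR, NTRK2, RET and GFRA1 and the ligand NTF3 were all higher in KO than in WT. These were 5 of 8 members, against 32.6% of all genes in either direction and 17% in the higher direction. In HET, 2 of 8 were called, NGFR and RET, against 14.4% of all genes (8.31% higher). The members' median difference was 0.85 log2 in KO and 0.86 in HET, beside -0.04 and 0 for all tested genes. KO against HET called 0 of 8, where 1.4% of genes passed, and DESeq2 also called 0. There 1 member, NTRK3, had an unadjusted edgeR p below 0.05 (0.0392), and the replicate block called it (1.40 log2, adjusted p = 0.0475). With the block 394 of 21714 genes were called, beside 305 without it.

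**Figure D3:**
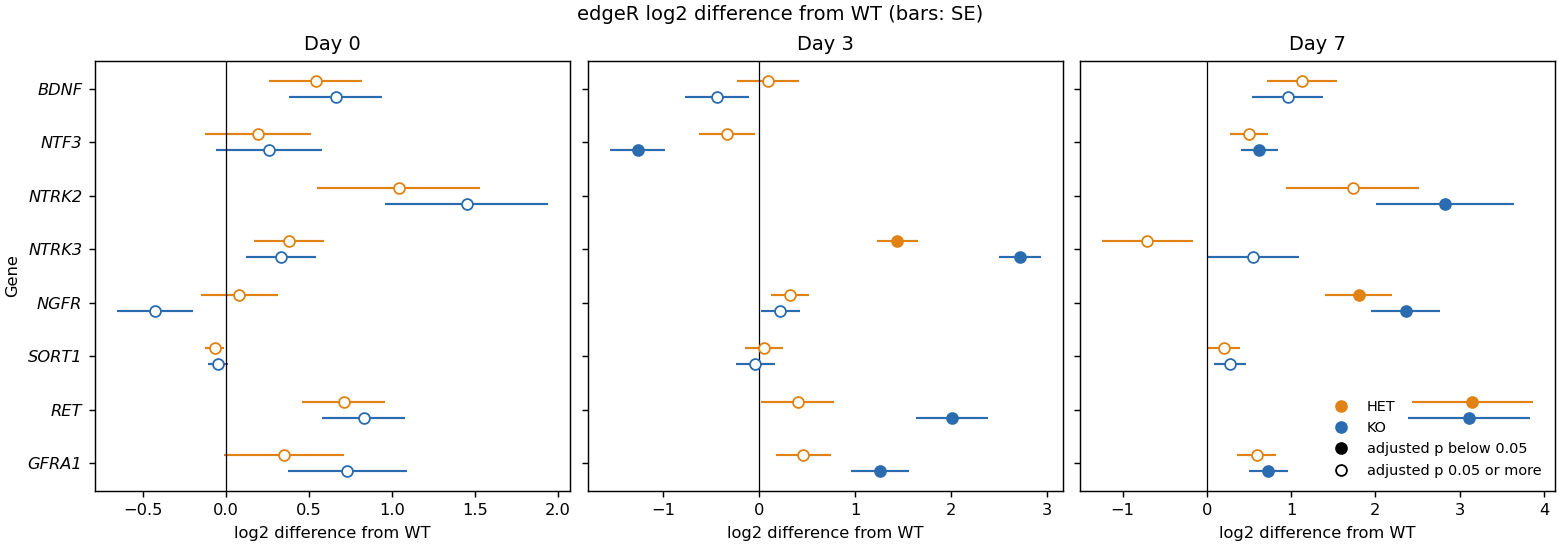
edgeR log2 difference from WT (horizontal axis; bars are SE) for the 8 genes at days 0, 3 and 7 in HET (orange) and KO (blue), with filled points for an adjusted p below 0.05. No point is filled at day 0, NTRK3 is filled in both genotypes at day 3, NGFR and RET in both at day 7, and NTRK2 has no point at day 3 because it failed the count filter.

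RET showed the largest day 7 difference of the set. WT libraries held 2.34, 16.5, 21.0 and 37.4 CPM, HET libraries 23.8, 254, 207 and 205, and KO libraries 171, 191, 136 and 185. KO lay wholly above WT, and 3 HET libraries lay above the KO values while HET replicate 1 fell within the WT range. The rise was 3.11 log2 in KO (SE 0.72, edgeR adjusted p = 0.00591) and 3.15 log2 in HET (SE 0.72, adjusted p = 0.012). The low HET library also had the highest structural RNA share of all (27.47%), and the other HET libraries had 2.84%, 4.17% and 13.35%. With that share as a covariate the HET difference was 1.89 log2 (adjusted p = 0.0651). KO and HET differed by -0.04 log2 (SE 0.66, adjusted p = 0.987), an interval too wide to show that they were alike.

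NGFR was likewise called in both genotypes. It read 70, 68.3, 113 and 150 CPM in WT, 437, 309, 535 and 126 in HET, and 697, 547, 567 and 308 in KO. KO did not overlap WT, and HET overlapped it through replicate 4. The differences were 2.36 log2 in KO (SE 0.41, edgeR adjusted p = 0.00103) and 1.80 log2 in HET (SE 0.40, adjusted p = 0.0105). Since p75 is a classical neural crest and Schwann cell protein, that list stands beside it: the 10 genes summed to 28.2 to 67.7 CPM in WT, 23.3 to 36.2 in HET and 13.7 to 31.8 in KO at day 7. SOX10, its defining factor, was at 1.06 ± 0.415 CPM in WT and 0.61 ± 0.151 in KO. The list went both ways in KO, with 3 of 10 genes higher and 3 lower at day 7, and 4 of 8 tested genes higher and 1 lower at day 3.

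NTRK2, the BDNF receptor gene, was spread widely within each group. It read 0.339, 3.09, 3.03 and 0.984 CPM in WT, 1.21, 9.29, 11.6 and 2.81 in HET, and 27.4, 11.4, 12.8 and 3.18 in KO. The lowest KO library lay just above the highest WT library. The rise in KO was 2.83 log2 (SE 0.82, edgeR adjusted p = 0.0184). It was 2.20 log2 (adjusted p = 0.0648) without KO day 7 replicate 1 and 1.83 log2 (adjusted p = 0.0717) with the structural RNA share as a covariate. On deposited TPM it was 0.67 on the log2(TPM + 1) scale (limma adjusted p = 0.14). The HET difference was 1.73 log2 (SE 0.79, adjusted p = 0.164), and 2.05 log2 (adjusted p = 0.0491) without HET day 7 replicate 1.

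GFRA1 and NTF3 gave smaller calls in KO. GFRA1 read 231, 383, 366 and 429 CPM in WT, 347, 592, 612 and 585 in HET, and 510, 602, 628 and 654 in KO, a KO rise of 0.73 log2 (SE 0.23, edgeR adjusted p = 0.0256). NTF3 read 3.63, 4.11, 4.40 and 2.90 CPM in WT and 5.32, 6.93, 4.78 and 6.64 in KO, a rise of 0.62 log2 (SE 0.22, adjusted p = 0.048). KO and WT did not overlap for either gene. Both calls stood near the threshold. NTF3 lost it without any 1 of 7 of the 8 libraries (all but KO replicate 3), with adjusted p from 0.0532 to 0.121. GFRA1 lost it without any 1 of 5 (WT replicates 1 and 3, KO replicates 2, 3 and 4), with adjusted p from 0.0514 to 0.0619. Both lost it on deposited TPM, with library-size scaling and with the structural RNA covariate. In HET, GFRA1 was 0.59 log2 higher (SE 0.23, adjusted p = 0.0971), and 0.73 log2 (adjusted p = 0.0118) without HET day 7 replicate 1.

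BDNF was not called against WT on any day. At day 7 it read 2.86, 1.17, 1.69 and 0.618 CPM in WT, 1.98, 4.54, 4.8 and 2.45 in HET, and 3.70, 2.88, 2.43 and 3.43 in KO. WT replicate 1 overlapped both mutant groups, and the other WT libraries lay below every HET and KO library. The difference was 0.96 log2 in KO (SE 0.42, edgeR adjusted p = 0.0961) and 1.13 log2 in HET (SE 0.42, adjusted p = 0.0901). Without WT day 7 replicate 1 both passed, at 1.39 log2 in KO (adjusted p = 0.0256) and 1.56 log2 in HET (adjusted p = 0.032). The HET difference also passed with DESeq2 (adjusted p = 0.0381) and without HET day 7 replicate 1 (1.3 log2, adjusted p = 0.0287). BDNF-AS was at 4.31 ± 0.969 CPM in WT, 4.92 ± 0.96 in HET and 5.29 ± 0.276 in KO.

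NTRK3 was not called against WT at day 7, and all 4 KO libraries lay above all HET libraries. HET libraries held 63.3, 27.0, 56.8 and 18.9 CPM and KO libraries 133, 81.7, 119 and 70, around WT libraries that ran from 23.4 to 169. The KO difference was 0.55 log2 (SE 0.54, edgeR adjusted p = 0.457) and became 1.51 log2 (adjusted p = 0.0169) without WT replicate 1. In HET it was -0.71 log2 (SE 0.54, adjusted p = 0.424). SORT1 was at 115 ± 19.8 CPM in KO, 106 ± 22.7 in HET and 92.3 ± 16.3 in WT, with differences of 0.28 log2 (SE 0.19) and 0.20 log2 (SE 0.19) that did not pass.

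WT day 7 replicate 1 stood apart in other markers as well. Its dividing-cell markers summed to 215 CPM, beside 31.4 to 97.3 in the other WT libraries, 10.9 to 25.1 in HET and 12.1 to 15.2 in KO. Its pan-neuronal markers summed to 5882 CPM, beside 9178 to 11381 in the other WT libraries. All 6 dividing-cell markers were called lower in both KO and HET at day 7. Sensory and autonomic markers overlapped between the groups (328 to 849 CPM in KO, 182 to 887 in HET, 372 to 495 in WT). Stem cell markers summed to 244 to 319 CPM in KO, 78.3 to 161 in HET and 52.0 to 64.3 in WT, with POU5F1 at or under 3 counts in every KO library. Of these 8 markers only 3 were tested, with 2 higher and 1 lower in KO and 2 higher and 0 lower in HET. Astrocyte markers summed to 1.19 to 1.75 CPM in KO and 15 to 26.1 in WT, and mesenchymal markers to 6.84 to 9.54 and 43.9 to 64.7 (3 of 4 tested lower). Excitatory forebrain markers summed to 442 to 584 CPM in KO and 219 to 336 in WT (2 of 4 tested higher and 1 lower), and 3 of 10 pan-neuronal markers were higher in both mutants. Their part in the day 7 differences was not tested. Without WT replicate 1, RET and NGFR were still called in both genotypes. That fit does not test the markers, since the other WT libraries still differed from the mutants in dividing-cell markers.

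The change over time was then compared between genotypes with an interaction term over all 36 libraries. From day 0 to day 3, 2 of 8 members differed in KO against WT, where 8.55% of genes did (5.37% higher and 3.19% lower). NTRK3 rose by 2.44 log2 more (SE 0.56, edgeR adjusted p = 0.00573) and NTF3 by 1.49 log2 less (SE 0.41, adjusted p = 0.0189; 0.0523 without KO day 0 replicate 4). From day 3 to day 7, 3 of 8 differed, against 18.5% of genes (7.6% higher and 10.9% lower), and both of those genes turned. NTRK3 differed by -2.19 log2 (SE 0.55, adjusted p = 0.00442; -1.23 log2, adjusted p = 0.0349, without WT day 7 replicate 1) and NTF3 by 1.88 log2 (SE 0.39, adjusted p = 0.000675). In KO, NTRK3 went from 109 ± 21.0 CPM at day 3 to 101 ± 29.9 at day 7 (-0.12 log2, SE 0.20, adjusted p = 0.662), while in WT it rose. NTF3 fell in KO by only 0.83 log2 after day 3 (SE 0.29, adjusted p = 0.0279; lost without KO day 3 replicate 4, at -0.52 log2 and adjusted p = 0.104, and without KO day 7 replicate 1 or 3). KO thus had less NTF3 than WT at day 3 and more at day 7 by edgeR. The day 7 call stood near the threshold (edgeR adjusted p = 0.048), and both calls were lost on deposited TPM.

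NGFR differed most clearly in direction. After day 3 it fell in WT, rose by 0.88 log2 in KO (SE 0.27, edgeR adjusted p = 0.0164) and was 0.21 log2 from its day 3 level in HET (SE 0.34, adjusted p = 0.647). The KO rise had adjusted p = 0.0571 without KO day 3 replicate 3 and 0.0551 without KO day 7 replicate 1. The interaction was 2.13 log2 in KO (SE 0.44, adjusted p = 0.000655) and 1.5 log2 in HET (SE 0.44, adjusted p = 0.0392). In HET, 0 of 8 members differed from WT in the change to day 3, where 0.271% of genes did, by edgeR or DESeq2; 0 had an unadjusted p below 0.05, and the smallest unadjusted p was 0.0668, for NTRK3. From day 3 to day 7, 3 of 8 differed, against 4.74% of genes (2.06% higher and 2.69% lower): NGFR, RET (2.77 log2, SE 0.78, adjusted p = 0.0317) and NTRK3 (-2.12 log2, SE 0.55, adjusted p = 0.0187). The HET calls were less firm. NTRK3 was -1.16 log2 (adjusted p = 0.124) without WT day 7 replicate 1. NGFR lost its call, with adjusted p up to 0.137, without any 1 of 9 libraries: WT replicates 1 and 4 and HET replicates 1, 2 and 3 of day 3, and WT replicates 1 and 2 and HET replicates 2 and 3 of day 7. RET lost it, with adjusted p up to 0.0794, without any 1 of 7: WT replicates 3 and 4 and HET replicates 2 and 3 of day 3, and WT replicate 2 and HET replicates 2 and 3 of day 7.

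Within HET and within KO cells the days were compared in the same way. From day 0 to day 3 all 8 members changed in HET (5 higher and 3 lower, against 48.3% of genes, 24.4% higher and 23.9% lower) and 7 in KO (4 higher and 3 lower, against 59.3%, 29.7% higher and 29.6% lower). From day 3 to day 7, 6 changed in HET (4 higher and 2 lower, against 41.2%, 20.8% higher and 20.5% lower) and 6 in KO (5 higher and 1 lower, against 47.8%, 24.3% higher and 23.6% lower). The SORT1 calls in HET (0.47 and -0.45 log2) were lost without any 1 of 6 libraries (all of day 0, replicates 2 and 3 of day 3) and any 1 of 4 (replicates 2 and 3 of day 3, 1 and 4 of day 7). BDNF rose after day 3 in HET (1.99 log2, SE 0.39, edgeR adjusted p = 0.00134) and in KO (2.35 log2, SE 0.29, adjusted p = 1.82e-05), where the WT difference was not called. The interaction for BDNF was 1.38 log2 in KO (SE 0.51, adjusted p = 0.0546) and 1.06 log2 in HET (SE 0.50, adjusted p = 0.28). In KO it passed with DESeq2 (1.45 log2, adjusted p = 0.0288), without KO day 3 replicate 4 (adjusted p = 0.0329) and without WT day 7 replicate 1 (1.81 log2, adjusted p = 0.00908). RET rose by 7.33 log2 in HET (SE 0.69, adjusted p = 4.42e-06) and 5.67 log2 in KO (SE 0.31, adjusted p = 1.29e-08).

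The balance of the GDNF receptor pair was read as RET TPM per GFRA1 TPM within each library, a ratio in which the scaling of the library cancels. At day 7 the ratio was 0.0192, 0.0823, 0.0966 and 0.148 in WT, 0.139, 0.740, 0.571 and 0.596 in HET, and 0.541, 0.514, 0.370 and 0.477 in KO. All KO values lay above all WT values, and HET overlapped WT through replicate 1, the library with the highest structural RNA share, whose part in the ratio was not tested. The log2 difference of the ratio from WT was 2.77 in KO (exact two-sided permutation p = 0.0286, the smallest that 4 against 4 allows) and 2.65 in HET (exact permutation p = 0.0571). Both were 0.171 when adjusted over the 6 tests of this ratio. At day 3 the ratio was near its lowest in every genotype, 0.0128 ± 0.00865 in WT and 0.0296 ± 0.0215 in KO (exact permutation p = 0.114). The day 0 ratio was 2.40 ± 1.48 for WT, 2.46 ± 0.924 for HET and 2.26 ± 1.25 for KO.

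**Figure D4:**
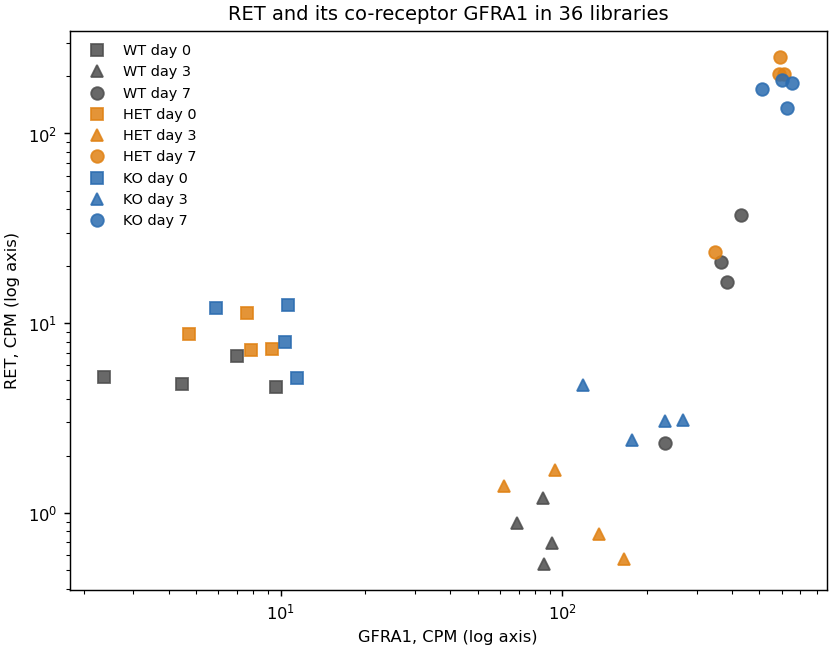
RET (vertical log axis, CPM) against GFRA1 (horizontal log axis, CPM) in the 36 libraries, coloured by genotype, with squares for day 0, triangles for day 3 and circles for day 7. GFRA1 rises from day 0 to day 3 while RET falls, and at day 7 the 4 KO and 3 of 4 HET libraries lie at 136 to 254 CPM of RET, above the 4 WT libraries and HET replicate 1 at 2.34 to 37.4.

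Ordered by mean level, groups next to each other mostly overlapped in their libraries. For RET the order ran from WT day 3 (0.83 CPM) through HET day 3 (1.10), KO day 3 (3.33), the day 0 groups (5.34 in WT, 8.65 in HET, 9.39 in KO) and WT day 7 (19.3) to KO and HET day 7 (171 and 172). Its neighbours did not overlap at 3 steps: HET day 3 to KO day 3, WT day 0 to HET day 0, and WT day 7 to KO day 7. For NGFR the steps without overlap were those from HET day 0 (32.4 CPM) to WT day 7 (100) and from WT day 7 to WT day 3 (246). For GFRA1 and NTRK3 the one clean step was from day 0 into WT day 3, for NTF3 that from KO day 0 (1.21 CPM) to WT day 7 (3.76), and for NTRK2 that from KO day 3 (0.122 CPM) to WT day 7 (1.86). For BDNF, from 0.606 CPM in KO at day 3 to 3.44 in HET at day 7, and for SORT1, from 92.3 CPM in WT at day 7 to 147 in HET at day 3, every pair of neighbours overlapped.

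The rest of the pathway was read from 6 lists of 72 genes, of which 71 were in the tables. At day 0, 1 gene was higher and 1 lower in KO among 68 tested (2.08% of all genes called), and 2 were higher in HET (1.63% of all genes called). These few calls are near those shares, so no result about the lists is read from them. At day 3, 23 were higher and 6 lower in KO among 65 tested (all genes: 12.6% higher and 8.93% lower), and 5 were higher in HET (2.52% of all genes). At day 7, 27 were higher and 6 lower in KO among 66 tested (17% of all genes higher, 32.6% called in either direction), and 19 were higher and 3 lower in HET (8.31% of all genes higher, 14.4% in either direction). These shares are the background for each list that follows. The median differences were 0.43 log2 (KO) and 0.23 log2 (HET) at day 3, and 0.44 and 0.42 log2 at day 7.

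The other ligands were scarce. GDNF averaged at most 0.0982 ± 0.1 CPM and NTF4 at most 0.279 ± 0.270 CPM in any day 3 or day 7 group. NRTN, the GDNF relative neurturin, was lower in KO at day 3 (1.69 ± 1.12 against 5.09 ± 1.28 CPM; -1.59 log2, SE 0.45, edgeR adjusted p = 0.022), the 1 call among 3 tested ligands. Of the other receptors and co-receptors, 8 of 10 tested genes were higher in KO at day 3 and 7 of 11 at day 7, with 2 lower, and in HET 2 of 10 at day 3 and 3 of 11 at day 7, with 1 lower. SORL1, a sorting receptor related to sortilin, was higher in HET at day 3 (40.7 ± 9.77 against 17.3 ± 4.84 CPM; adjusted p = 0.0267).

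Among genes for processing and sorting of the precursors, 4 of 9 were higher and 1 lower in KO at day 7, and 4 were higher in HET. In KO at day 3, 1 was higher and 3 were lower. The one that was higher was PCSK2, a convertase of secretory granules (5.30 ± 1.02 against 1.06 ± 0.322 CPM; 2.33 log2, SE 0.28, edgeR adjusted p = 9.07e-05), and PCSK5, PCSK6 and CADPS2 were lower (-0.61, -1.53 and -0.95 log2). Of receptor adaptors and p75 partners, 7 of 20 were higher in KO and 4 in HET at day 7, and 0 were lower. DOK5, an adaptor of Trk receptors and RET, was higher in KO at day 0 (6.64 ± 1.16 against 3.66 ± 0.383 CPM; 0.88 log2, SE 0.18, adjusted p = 0.0235). It was also higher in day 0 HET cells, and at day 3 in both KO (0.83 log2, adjusted p = 0.0163) and HET (1.02 log2, adjusted p = 0.0215). BEX3, a binding partner of p75, was higher in HET at day 0 (185 ± 22.9 against 102 ± 7.28 CPM; adjusted p = 7.02e-05).

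Among feedback and early response genes, 6 of 12 were higher in KO at day 3, and 7 were higher and 1 lower in both KO and HET at day 7. DUSP4, a MAP kinase phosphatase, rose in KO at day 3 to 69.4 ± 13.4 CPM from 11.7 ± 2.72 in WT (2.58 log2, SE 0.22, edgeR adjusted p = 5.37e-06). At day 7 VGF, a secreted peptide precursor induced by neurotrophins, was at 80.5 ± 19.3 CPM in KO, 65.0 ± 33.4 in HET and 6.42 ± 2.88 in WT. DUSP6, an ERK phosphatase, was at 91.4 ± 22.0, 60.2 ± 41.2 and 8.08 ± 1.28 CPM, and adjusted p for these 4 differences ran from 0.000158 to 0.00313. SPRY1, another inhibitor of receptor kinase signalling, was lower in HET (5.70 ± 2.07 against 14.0 ± 1.57 CPM; adjusted p = 0.00524). NPTX1, a secreted synaptic pentraxin, was lower in KO at day 0 (2.31 ± 0.521 against 11.5 ± 6.97 CPM; adjusted p = 0.0154) and higher at day 3 in KO (2.05 log2, adjusted p = 0.000153) and HET (1.23 log2, adjusted p = 0.0202). The immediate early genes FOS and EGR1 were not called at day 7; EGR1 was higher in KO at day 3 (1.15 log2, adjusted p = 0.0434). Of the BDNF gene regulators, REST, a repressor of neuronal genes, was lower in KO at day 3 (15.4 ± 5.48 against 58.5 ± 8.67 CPM; -1.92 log2, SE 0.25, adjusted p = 0.000154) and lower in both mutants at day 7.

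Genes whose log2(CPM + 1) ran most like each member across the 36 libraries were listed among 16355 genes, as a description of libraries that share days and depth. GFRA1 was most like CASTOR3P (Pearson r = 0.987), CELF3 (0.983) and DCX (0.983), the last a marker of young neurons. RET was most like CACNA2D3 (0.963), RMST (0.962) and FRMD3 (0.961). NGFR ran with TUBA3FP (0.956), SORCS2 (0.954) and PLXNA2 (0.949), NTRK3 with STARD4-AS1 (0.934), CDH22 (0.932) and THCAT155 (0.927), NTF3 with PRRT1 (0.960), PLD3 (0.959) and KDM4C (0.953), and NTRK2 with KIF26B (0.950), NTM (0.947) and PCDH7 (0.947). The closest genes to BDNF were RPS6KA6 (0.867), BMP2 (0.854) and C2orf49 (0.851), and to SORT1 they were ARHGAP32 (0.864) and H2AZ2 (0.855). BDNF and SORT1 thus had looser matches than the other 6 members.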

How the data were processed

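Total RNA depleted of ribosomal RNA was sequenced from 36 libraries, per the labels' protocols. Per the submitters' processing notes the tools were cutadapt 4.8, FastQC 0.11.8, MultiQC 1.20, STAR 2.7.8a and RSEM 1.3.3 with build GRCh38; use of strand is not given in the sources used here. The authors deposited expected counts (whole numbers in these files) and TPM per gene. Positions are from GENCODE 29. Of 62714 features, 4 reporter sequences (at most 0.0171% of a library) were left out.

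Genotypes were compared within each day (12 libraries), days within each genotype (12 libraries) and interactions over 36, with edgeR 4.0.16 in R 4.3.3: TMM, filterByExpr, quasi-likelihood test, Benjamini-Hochberg over all tested genes, threshold 0.05. SE is the log2 difference divided by the square root of F. Alternatives were other scalings, no filter, DESeq2 1.42.0, limma 3.58.1 on log2(TPM + 1), a replicate block, the structural RNA share as a covariate and leaving out each library; limma without the 5 structural RNAs was chosen after seeing the data. Deposited TPM depends on those RNAs, which took 47.89% to 86.47% of it.

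The members, pathway and marker lists were chosen with earlier results of these data known. Named were all members, RAI1, per comparison with WT the 2 strongest rises and falls among called, non-overlapping pathway genes with at least 5 CPM in the higher group, and 3 most similar genes per member (some items under these rules are not reported here); other pathway genes were named after their values were seen. Same-numbered libraries deviated together (every correlation above 0.1) between KO and WT at day 0 (0.254 to 0.628) and day 3 (0.139 to 0.548), and for HET at day 3 (0.169 to 0.768). This pairing comes from the data; all libraries carry 1 batch label. No 2 replicates were alike within sampling noise (54 pairs, lowest chi-square per gene 13.79). On simulated counts (KO against WT at day 7, 21205 genes) edgeR recovered 90% of changes of 1 log2 and 100% of 2 log2. For the KO interaction from day 3 to day 7 (23370 genes) it recovered 61% and 97%. The simulated spread was set by a formula, and only well-counted genes were changed. These shares are therefore no measure of power for the members, whose SE in KO against WT at day 7 reached 0.82 (NTRK2). Figures used matplotlib 3.10.9.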

Additional observations from a re-analysis of the deposited data

Results flagged for a closer look

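In 5 of 72 groups of 4 libraries 1 library lay far from the other 3 by Dixon's test, where chance gives about 3.6. They were the highest NTRK2 library of WT day 3 (0.236 CPM), the highest NTRK3 libraries of HET day 0 (8.19 CPM) and WT day 7 (169 CPM), the highest SORT1 library of KO day 3 (189 CPM) and the lowest GFRA1 library of HET day 7 (347 CPM).

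The change over time differed between genotypes, by an interaction test in edgeR, in 8 of 32 tests of the members. In KO against WT these were NTF3 (-1.49 log2) and NTRK3 (2.44 log2) from day 0 to day 3, and NTF3 (1.88 log2), NTRK3 (-2.19 log2) and NGFR (2.13 log2) from day 3 to day 7. In HET against WT they were NTRK3 (-2.12 log2), NGFR (1.5 log2) and RET (2.77 log2) from day 3 to day 7.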

How the results depend on the processing

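Of 63 called results, the call and direction held in 62 with DESeq2 size factors, 59 with library size alone, 61 with no filter, 63 with DESeq2, 61 with the replicate block, 37 on deposited TPM and 56 on TPM without the structural RNAs. With the structural RNA covariate 10 of 14 held. Leaving out single libraries kept 517 of 568, and 12 results lost their call at least once. Where the replicate block raised a count of called members, it gave 2 for KO against WT at day 0, 1 for HET against WT at day 0 and 1 for KO against HET at day 7; it changed no count of members by over 1.5 times elsewhere. DESeq2 gave 1 for KO against WT at day 0. Library size alone gave 3 for KO against WT at day 7. The covariate gave 4 for KO against HET at day 3, 2 for KO and 1 for HET against WT at day 7. On deposited TPM the counts were 2 for KO against WT at day 3 and at day 7, 0 for HET against WT and KO against HET at day 3, 5 and 2 for HET from day 0 to 3 and day 3 to 7, 1 for both KO interactions and 0 for the HET interaction from day 3 to 7. Without the structural RNAs they were 1 for KO against HET at day 3 and 5 for the later KO interaction. Without 1 library the counts ran from 0 to 1 (KO against WT, day 0), 1 to 3 (KO against HET, day 3), 3 to 5 (KO against WT, day 7), 2 to 5 (HET against WT, day 7), 4 to 6 (KO, day 3 to 7), 1 to 2 (KO interaction, day 0 to 3) and 1 to 3 (HET interaction, day 3 to 7). Directions turned for uncalled differences of BDNF in HET at day 3 (-0.08 to 0.31 without 1 library) and NTRK3 in KO from day 3 to 7 (-0.27 to 0.02 without 1 library), and for SORT1 from day 0 to 3 on TPM (-0.49 in WT, -0.13 in HET, -0.09 in KO). The cause was not tested. TPM also shifted the median of all genes by 0.46 log2 in HET against WT at day 7 and -0.38 log2 in WT from day 0 to 3. Over all genes, counts of calls differed by over 1.5 times mainly on TPM (816 against 4649 for KO against WT at day 3, 1007 against 7070 at day 7, 271 against 3129 for HET at day 7), with the block (960 against 425 for KO at day 0, 8138 against 4649 at day 3) and without HET day 7 replicate 1 (7674 against 3129). NTRK2 had too few counts at day 3 to be tested between genotypes.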
